A study of Mus musculus with 13 samples.

Results

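Rods, the photoreceptors of dim light, carry a dedicated signaling pathway in a stack of membrane discs, the outer segment. Here, 32 genes of rod phototransduction and of the rod outer segment were followed across 13 RNA-seq libraries of mouse retinal cells that had been sorted as retinal ganglion cells (RGCs), the output neurons of the retina, by their surface protein Thy1.2. The genes were chosen by name, and all 32 were found by Ensembl gene ID among the 52550 genes of the count table. The question asked of them was how far RNA of a cell type that the sort should not collect changed with age, injury and Kdm6a deletion.

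In the rod pathway, light changes the visual pigment, which activates the G protein transducin. Transducin frees phosphodiesterase from its inhibitory subunits, the enzyme destroys cyclic GMP, and cation channels held open by cyclic GMP close. Arrestin, a receptor kinase and an accelerator of the GTPase of transducin shut the response off, guanylate cyclase restores cyclic GMP, and retinoid enzymes clear the bleached chromophore.

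The injured adult dataset held 2 libraries of AAV2-Cre and 3 of AAV2-GFP. Both groups were labelled P42 (postnatal day 42) and had optic nerve crush 3 days before collection. The study's methods place the virus injection at about this age or later, so the age at collection is uncertain. AAV2-Cre mice carried floxed Kdm6a, with loxP sites around 1 exon of this X-linked histone demethylase gene (also named UTX), and received Cre recombinase by an adeno-associated virus injected into the vitreous. The promoter of the virus is not given in the sources used here, so Cre is not known to be limited to RGCs. AAV2-GFP mice received the same virus type with green fluorescent protein as the control. The labels give their genotype as GFP, the study's results describe them as floxed, and its methods call them wild type. Development was covered by 3 libraries of P1, 3 of P14 and 2 of P21 from wild type mice, labelled developmental control, with no virus and no crush named. The study speaks of biological replicates and does not give the number of animals behind a library. The p-values below measure the spread between these libraries only.

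Total counts ran from 13637602 to 16070720 in injured adults and from 30357454 to 38812917 in development. Levels are given as CPM, the count of a gene relative to its library's total in the usual unit, with totals scaled by TMM (edgeR's trimmed mean of log ratios) over the 13 libraries. The whole-gene level of Kdm6a was 110 and 112 CPM in AAV2-Cre, against 115, 96.5 and 119 CPM in AAV2-GFP (log2 fold change -0.02, Benjamini-Hochberg adjusted p = 0.963 from edgeR's quasi-likelihood test). A count over the whole gene does not check a deletion of 1 exon. The RGC label was checked against Rbpms, an RNA-binding protein of nearly all RGCs. It was at 1.96 and 3.13 CPM in AAV2-Cre, at 2.44, 2.18 and 0.602 CPM in AAV2-GFP, from 614 to 677 CPM at P1, from 62.2 to 76.6 CPM at P14 and at 48.9 and 19.6 CPM at P21. The whole list of 15 RGC genes took 0.0482% and 0.0354% of counts in AAV2-Cre, from 0.0330% to 0.0417% in AAV2-GFP, from 0.820% to 0.897% at P1, from 0.1098% to 0.124% at P14, and 0.0857% and 0.0503% at P21. RNA of Rbpms was thus close to 0 in injured adults, while the share of the whole list was below both P21 values and closest to that of P21 2. Of the 15 genes, 9 were lower in AAV2-GFP than at P21, 2 were higher (the neurofilament genes Nefl and Nefh) and 4 were not called (edgeR). Markers of the pigment epithelium, the layer that touches rod outer segments, were near 0, and Rpe65 did not exceed 0.436 CPM in any library.

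Several libraries stood apart within their groups. AAV2-Cre 1 was below all AAV2-GFP libraries for 31 of the 32 genes, whereas AAV2-Cre 2 was below them for 14, within their range for 17 and above them for 1. AAV2-Cre 1 was the lowest of all adult libraries for 29 of the 32 genes. Among the 23844 genes that passed the low-count filter over 13 libraries, it was the lowest for 26.7%. The share of all genes was not counted for AAV2-Cre 1 below all AAV2-GFP libraries, nor for AAV2-Cre 2 alone. P1 3 was the lowest P1 library for Abca4, Gucy2e, Gucy2f and Rgs9bp. P21 2 had less RNA of RGC genes than P21 1. Several results that rest on 1 library are given with and without it.

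The rod genes are under the control of photoreceptor transcription factors, of which CRX binds TAATCC and NRL binds elements with TGCTGA. The 250 bases upstream of the start sites in RefSeq (GRCm38.p6) were searched on both strands for these letters. Of the 32 genes, 26 had a window and 6 did not (Gnat1, Pde6a, Pde6g, Guca1b, Rcvrn and Rgs9bp). TAATCC was found upstream of 11 of 26 genes (42.3%), or in 11 of their 29 windows (37.9%), and in 6.25% of all 32851 windows of the same length. TGCTGA was found upstream of 7 of 26 genes (26.9%), or in 24.1% of their windows, and in 16.1% of all windows. No match of one overlapped a match of the other. A match is a run of letters and not a measured binding site.

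The promoters of 6 genes are shown, as 150 bases that end at the base before the start site and hold no exon of the GENCODE M21 annotation. Sag, Rbp3, Cngb1 and Gucy2f hold the letters of the CRX element, and Pde6b and Slc24a1, which were among the genes with the greatest difference between adults and P21, do not. Capitals mark TAATCC or its reverse complement GGATTA and, in Pde6b, TGCTGA.
Sag (chr1:87803530-87803679, plus strand): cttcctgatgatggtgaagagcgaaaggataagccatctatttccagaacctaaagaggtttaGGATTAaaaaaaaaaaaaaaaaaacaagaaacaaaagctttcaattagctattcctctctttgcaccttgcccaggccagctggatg
Rbp3 (chr14:33953853-33954002, plus strand): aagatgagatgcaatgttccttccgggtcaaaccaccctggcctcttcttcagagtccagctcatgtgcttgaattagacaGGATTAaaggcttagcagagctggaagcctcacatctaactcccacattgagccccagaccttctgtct
Cngb1 (chr8:95306586-95306735, minus strand): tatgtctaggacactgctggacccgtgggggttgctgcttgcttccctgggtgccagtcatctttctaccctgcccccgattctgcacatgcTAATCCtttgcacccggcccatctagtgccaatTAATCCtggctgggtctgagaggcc
Gucy2f (chrX:142196937-142197086, minus strand): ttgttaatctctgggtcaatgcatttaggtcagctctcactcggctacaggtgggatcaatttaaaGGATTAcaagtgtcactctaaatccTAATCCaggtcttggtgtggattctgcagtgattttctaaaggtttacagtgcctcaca
Pde6b (chr5:108388223-108388372, plus strand): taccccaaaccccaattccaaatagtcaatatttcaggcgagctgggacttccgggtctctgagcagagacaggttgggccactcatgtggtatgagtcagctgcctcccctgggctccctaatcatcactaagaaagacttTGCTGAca
Slc24a1 (chr9:64951621-64951770, minus strand): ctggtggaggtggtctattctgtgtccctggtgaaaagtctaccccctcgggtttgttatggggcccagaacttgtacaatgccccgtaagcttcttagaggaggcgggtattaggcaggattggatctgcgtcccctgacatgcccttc
Cngb1 and Gucy2f each hold the CRX letters 2 times within these 150 bases, and Sag and Rbp3 hold them 1 time.

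The levels of the rod genes were first set side by side over all libraries. All 5 injured adult libraries were above all 8 development libraries for 28 of the 32 genes, a pattern that 22.5% of the 23844 genes in the filter showed. Their summed level was 19200 and 34385 CPM in AAV2-Cre, 41611, 32727 and 33444 CPM in AAV2-GFP, from 1649 to 1715 CPM at P1, from 2613 to 2841 CPM at P14, and 2461 and 2503 CPM at P21. As a share of all counts this was 1.91% and 3.35% in AAV2-Cre, from 3.52% to 4.25% in AAV2-GFP, and at most 0.286% in development. The 4 genes whose adult and development libraries overlapped were Rgs9, Rdh8, Abca4 and Unc119. In a bulk library, more cells of a type and more RNA per cell cannot be told apart.

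**Figure D1:**
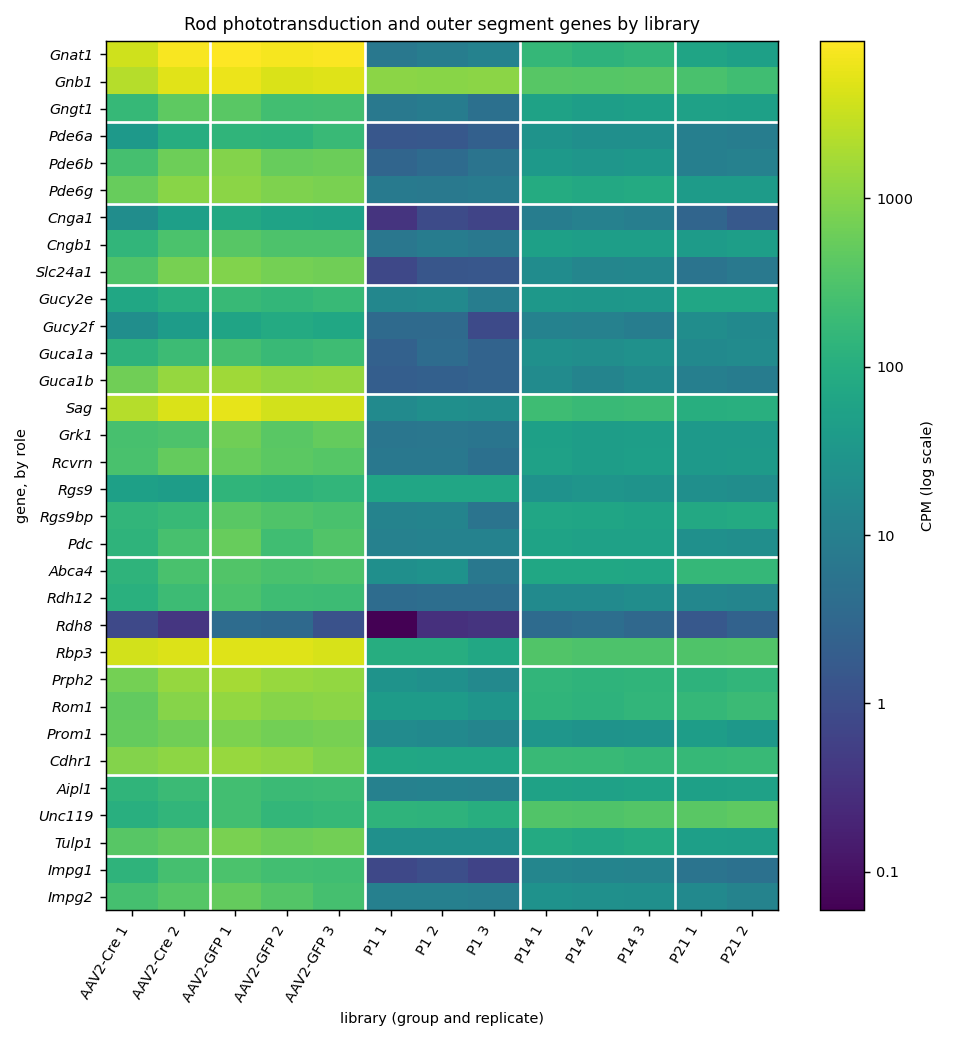
CPM of the 32 rod genes (rows, grouped by role) in each of the 13 libraries (columns), with color on a log scale. The 5 adult columns at the left are brighter than the 8 development columns for 28 genes, and Unc119 is brightest at P21.

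Per kilobase of exon, Gnat1, which encodes the rod transducin alpha subunit, was the most abundant of the 32 genes in injured adults, at 1874 ± 980 CPM per kb in AAV2-Cre (SD, n = 2) and 2654 ± 207 CPM per kb in AAV2-GFP (SD, n = 3). It was followed in AAV2-GFP by Gnb1 at 1208 and Rbp3 at 878 CPM per kb (means, n = 3). At P1, Gnb1, the transducin beta subunit that many cell types use, led with 251 CPM per kb and Unc119, a lipid-binding trafficking protein, followed with 49.6 (means, n = 3). At P14 and at P21 Unc119 led, with 139.6 (mean, n = 3) and 177 CPM per kb (mean, n = 2). Both Gnb1 and Unc119 are known from cells other than rods, whereas Gnat1, the leading gene of adults, is specific to them.

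The makeup of the summed level changed in the same way. Gnat1 held 18.6% and 22.6% of the summed CPM in AAV2-Cre, from 20.8% to 24.2% in AAV2-GFP, from 0.401% to 0.698% at P1, from 5.04% to 5.63% at P14, and 2.52% and 2.01% at P21. The 3 transducin genes together held from 62.4% to 68.7% at P1, nearly all of it Gnb1, and 16.3% and 13.1% at P21. The chaperone and traffic genes Aipl1, Unc119 and Tulp1 held 3.29% and 2.47% in AAV2-Cre, from 2.95% to 3.15% in AAV2-GFP and from 8.34% to 22.3% in development. The rod genes were therefore not scaled by 1 common factor between groups.

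**Figure D2:**
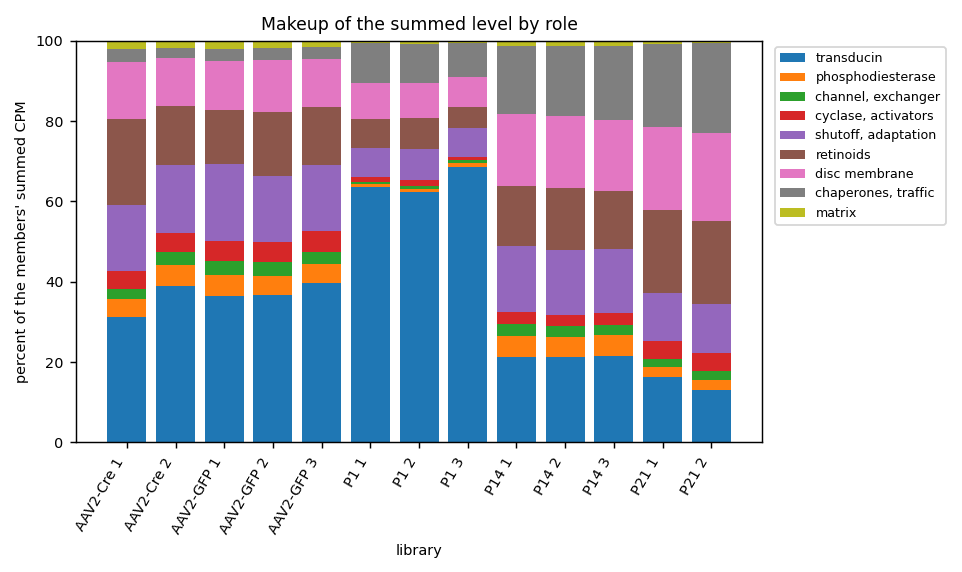
Percent of the summed CPM of the 32 rod genes held by each role (stacked bars) in each library. Transducin genes fill from 62.4% to 68.7% of the P1 bars and 16.3% and 13.1% of the P21 bars, and the share of chaperone and traffic genes is highest at P21 (20.6% and 22.3%).

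Next, P14 was compared with P1, over the days when rod outer segments form and the eyes open. By edgeR's quasi-likelihood test over 20890 genes, 30 of the 32 rod genes were higher at P14 and 2 were lower. The background was high, since 33.6% of all genes tested were called higher and 33.6% lower. The median log2 fold change of the 32 genes was 2.63, against -0.01 over all genes. With the study's limit of a log2 fold change beyond 1, 29 were higher (19.7% of all genes) and 2 lower (15.2%).

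Gnat1 (ENSMUSG00000034837, chr9:107674474-107679712, minus strand, GRCm38) was at 159.9, 131.6 and 146.1 CPM at P14, against 6.88, 9.0 and 11.5 CPM at P1. All P14 libraries were far above all P1 libraries, and the log2 fold change was 3.97 (SE 0.16, adjusted p = 2.97e-08, edgeR). Cnga1, the alpha subunit of the cyclic GMP-gated channel, was at 9.06, 10.9 and 9.68 CPM at P14, against 0.353, 0.894 and 0.662 CPM at P1. Its log2 fold change was 3.92 (SE 0.29). Impg1, a proteoglycan of the matrix around photoreceptors, was at 13.7, 12.8 and 12.1 CPM at P14, against 0.765, 1.02 and 0.633 CPM at P1 (3.96, SE 0.18). These were the steepest rises together with Rdh8, an outer segment retinol dehydrogenase (3.95, SE 0.43), which had from 131 to 138 counts in a P14 library and from 2 to 12 in a P1 library.

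All 3 phosphodiesterase genes rose, the catalytic Pde6a by 3.72 and Pde6b by 3.01 and the inhibitory Pde6g by 3.40 on the log2 scale. The shutoff genes Sag (arrestin, 3.28), Rcvrn (recoverin, the calcium sensor of the kinase, 2.96), Grk1 (the rhodopsin kinase, 2.91), Rgs9bp (the membrane anchor of Rgs9, 2.61) and Pdc (phosducin, which binds transducin beta-gamma, 2.26) rose as well. Among genes of cyclic GMP synthesis and the channel, Slc24a1 rose by 3.66, Guca1a by 2.88, Guca1b by 2.75, Cngb1 by 2.65, Gucy2f by 1.92 and Gucy2e by 1.27, and Gngt1 of transducin rose by 2.85. Of the genes that handle retinoids or escort other proteins, Aipl1 rose by 2.29, Rdh12 by 2.10, Abca4 by 1.86, Tulp1 by 1.80, Rbp3 by 1.79 and Unc119 by 1.46, and the matrix gene Impg2 rose by 1.15. Genes of disc structure, apart from Prph2, rose by less than the median. Prph2 and Rom1, the tetraspanins of the disc rim, rose by 2.65 and 1.88, Cdhr1, a cadherin of forming discs, by 1.37, and Prom1, a membrane protein of forming discs that other cell types also make, by 0.79. Exons of Prom1 share 424 bases (5.91%) with the antisense gene Gm16401, and reads there could not be assigned by strand because the strand setting is not stated.

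The 2 genes that fell were Gnb1 and Rgs9. Gnb1 was at 388, 377 and 394 CPM at P14, against 1078, 1022 and 1116 CPM at P1 (log2 fold change -1.50, SE 0.07, adjusted p = 7.18e-08, edgeR). Rgs9, the GTPase accelerator, was at 25.5, 28.6 and 26.7 CPM at P14, against 67.7, 67.4 and 68.0 CPM at P1 (-1.36, SE 0.06, adjusted p = 5.51e-08, edgeR). Both are known from neurons outside the rods, Rgs9 from the striatum of the brain. Among other lists, 14 of 15 RGC genes fell in this comparison, with a median log2 fold change of -3.13, and 10 of 11 cone genes rose, with a median of 2.33. All 15 bipolar cell genes rose (median 2.56), as did all 12 genes of Müller glia, the support cells of the retina (median 2.10). All 12 microglia genes (median 3.76), all 7 pericyte genes (4.59) and all 7 endothelial genes (3.33) rose as well. A rise was thus not particular to photoreceptor genes. The part of RGC RNA in the fall of Gnb1 and Rgs9 was not tested.

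Against P1, P21 gave the same directions, with 30 genes higher (34.1% of all genes tested) and the same 2 lower (33.6%). With the fold limit, 29 were higher (20% of all genes) and 2 lower (18.2%). The median log2 fold change was 2.37, and this comparison shares its P1 libraries with the previous one and its P21 libraries with the next.

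P21 was then compared with P14. Of the 32 genes, 16 were lower at P21 and 5 were higher (edgeR, background 19.3% lower and 14.6% higher), and 11 were not called. The 5 higher genes, 15.6% of the 32, were close to the background share, so that their number is no result about the rod genes. The median log2 fold change was -0.34, against -0.00 over all genes. All 3 phosphodiesterase genes, the channel subunit Cnga1, the exchanger Slc24a1, Gnat1, Sag and Pdc fell, while the cyclase Gucy2e and the retinoid transporter Abca4 rose. Beyond a log2 fold change of 1, 8 genes were lower (9.21% of all genes) and 2 higher (2.7%).

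Cnga1 was at 2.79 and 1.63 CPM at P21, against 9.06, 10.9 and 9.68 CPM at P14. Both P21 values were below all P14 values, with a log2 fold change of -2.10 (SE 0.29, adjusted p = 0.000564, edgeR). Pde6b was at 10.01 and 10.96 CPM at P21, against 36.3, 30.7 and 33.4 CPM at P14 (-1.62, SE 0.21, adjusted p = 0.000373, edgeR). Pde6a was at 9.84 and 8.94 CPM at P21, against 26.4, 21.6 and 22.5 CPM at P14 (-1.27, SE 0.15). The inhibitory Pde6g was at 39.4 and 39.8 CPM at P21, against 88.9, 78.0 and 85.7 CPM at P14 (-1.03, SE 0.08). No P21 library overlapped a P14 library for these 4 genes. Both P21 libraries were below all P14 libraries for 20 of the 32 genes, a pattern of 31.3% of the 23844 genes in the filter. Both were above for 7, a pattern of 22.2% of those genes.

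Gnat1 was at 62.0 and 50.3 CPM at P21, against 159.9, 131.6 and 146.1 CPM at P14 (-1.32, SE 0.16, adjusted p = 0.000294, edgeR). Slc24a1, the sodium, calcium and potassium exchanger of the rod membrane, was at 5.60 and 7.13 CPM at P21, against 19.4, 13.6 and 14.6 CPM at P14 (-1.26, SE 0.24). Pdc was at 23.3 and 21.4 CPM at P21, against 57.5, 54.3 and 54.3 CPM at P14 (-1.25, SE 0.07, adjusted p = 6.39e-06, edgeR), the smallest p among the 32 genes. Impg1 (-1.20), Sag (-0.89), Tulp1, a traffic protein of the outer segment (-0.73), Guca1b, a calcium sensor that activates the cyclase (-0.71), Impg2, the second matrix proteoglycan (-0.65), Gnb1 (-0.54), Grk1 (-0.35), Rdh12, a retinol dehydrogenase of the inner segment (-0.33), and Rgs9 (-0.30) fell by less.

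In the other direction, Gucy2e, a retinal guanylate cyclase that cones also use, was at 67.1 and 68.3 CPM at P21, against 33.8, 31.7 and 33.0 CPM at P14. Both P21 values were above all P14 values, a 2.14-fold difference (log2 fold change 1.10, SE 0.18, adjusted p = 0.00141, edgeR). Abca4, the flippase that clears retinoids from discs, was at 162 and 161 CPM at P21, against 69.3, 70.1 and 65.8 CPM at P14 (1.30, SE 0.36, adjusted p = 0.0196, edgeR). The other retinal cyclase, Gucy2f, was at 19.96 and 16.6 CPM at P21, against 11.2, 11.01 and 8.97 CPM at P14 (0.87, SE 0.36, adjusted p = 0.0923, edgeR) and was not called, although its libraries did not overlap. Prom1 (0.49), Rom1 (0.43) and Unc119 (0.40) rose by less.

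Per kilobase, Cnga1 over Cngb1, the 2 subunits of 1 channel, was 0.0792, 0.152 and 0.142 at P1, 0.263, 0.354 and 0.313 at P14, and 0.104 and 0.0522 at P21. The ratio was thus highest at P14 among the 3 ages, and at P21 it was within the P1 range in 1 library and below it in the other. In injured adults the ratio was 0.203 and 0.244 in AAV2-Cre and from 0.252 to 0.292 in AAV2-GFP. Cngb1 itself was at 39.8 and 46.3 CPM at P21, against 50.9, 45.4 and 45.7 CPM at P14 (log2 fold change -0.08, SE 0.12, adjusted p = 0.653, edgeR). This pair and the pairs of genes set against each other below were chosen after their values were seen.

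Prph2 (0.03, SE 0.17), Cdhr1 (0.01, SE 0.07), Aipl1, a chaperone of phosphodiesterase (-0.05, SE 0.07), Gngt1, the transducin gamma subunit (0.10, SE 0.17), and Rbp3, the retinoid carrier of the matrix (0.12, SE 0.11), were close to 0 between P21 and P14. Rdh8 (-0.82, SE 0.38), Rcvrn (-0.36, SE 0.14), Guca1a (-0.29, SE 0.16) and Rgs9bp (0.43, SE 0.23) were not called either, with wider errors. Of the 16 genes that fell, 10 were called under all 14 other fits (Cnga1, Gnat1, Impg1, Pdc, Pde6a, Pde6b, Pde6g, Sag, Slc24a1 and Tulp1). Of the 5 that rose, only Gucy2e was. Gucy2f and Rgs9bp, not called in the main fit, were each called under 2 of the 14. Abca4 was called under 6 of the 14, with an adjusted p up to 0.0731 (edgeR), and its level of 6.99 CPM in P1 3 was far below 22.5 and 25.8 CPM in the other P1 libraries, which share this fit. Without P1 3, 7 genes were called higher at P21 and 17 lower. Over all genes, that fit called 3751 of 20618 higher and 4336 (21%) lower, against 3047 and 4024 of 20890 in the main fit.

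**Figure D3:**
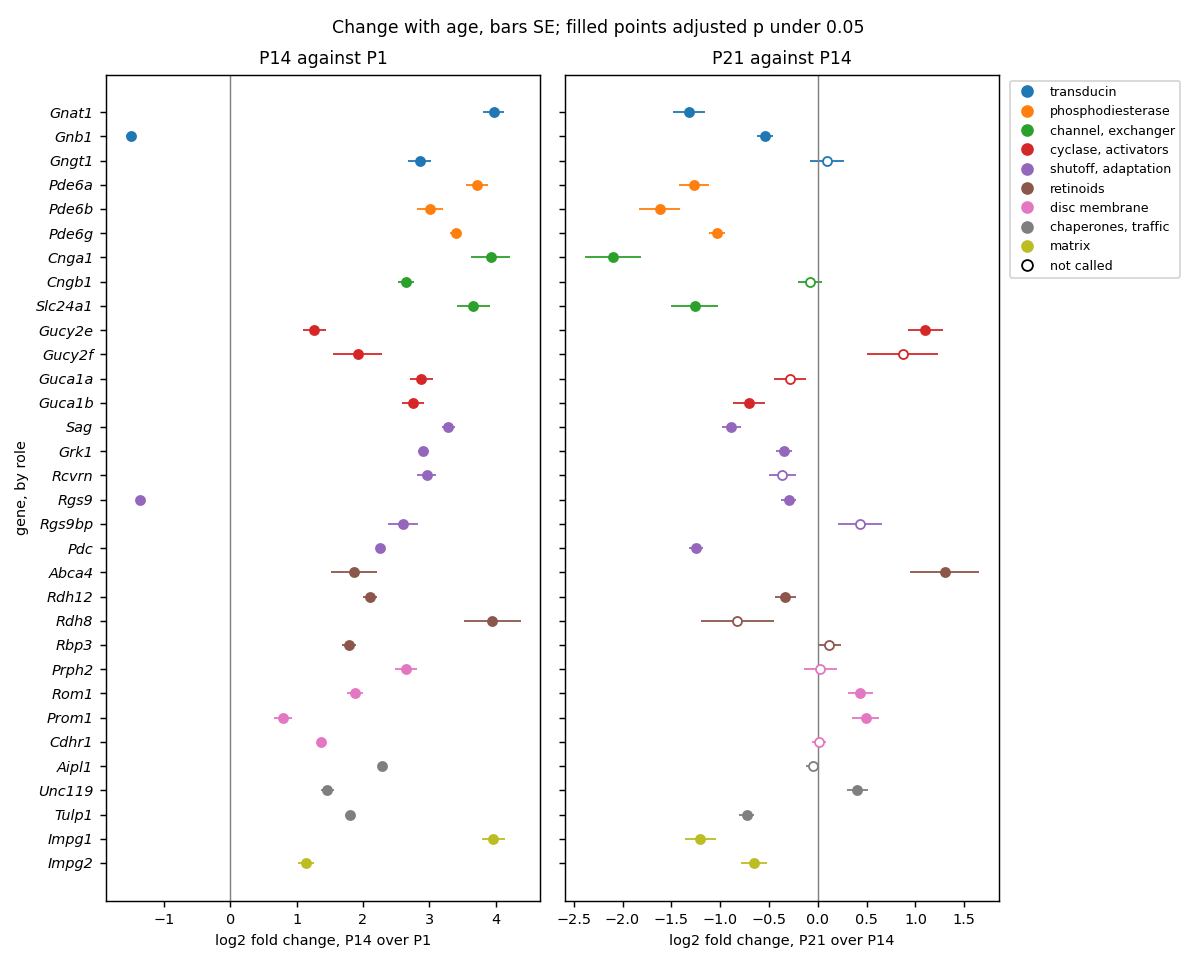
Log2 fold change (points, bars SE) of the 32 rod genes at P14 over P1 (left) and P21 over P14 (right), colored by role, filled where the Benjamini-Hochberg adjusted p from edgeR was under 0.05. At the left 30 filled points lie above 0, and at the right 16 lie below 0 and 5 above.

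Values of other cell types moved beside these changes. Between P21 and P14, 12 of 23 other rod genes fell and 3 rose (median log2 fold change -0.43). Of 11 cone genes 3 fell and 4 rose (median -0.07), and of 12 Müller glia genes 5 rose (median 1.03). All 7 pericyte genes and all 12 microglia genes fell, with medians of -3.19 and -1.96. Of 15 RGC genes 9 fell and 2 rose (median -1.19), and of 7 endothelial genes 5 fell (median -1.50). Of 15 bipolar cell genes 4 fell and 3 rose (median 0.33). A fall was thus not particular to photoreceptor genes. The part of cell mixture in the fall of the rod genes was not tested.

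The injured adult controls were then set against P21. Dataset, age, virus and crush differ between these groups, and the floxed allele may differ as well, since the genotype of AAV2-GFP is described in differing ways. Their parts cannot be told apart. By edgeR's test in 1 fit of all 13 libraries, 29 of the 32 genes were higher in AAV2-GFP and 1 was lower (background 32.6% higher and 33.9% lower). The median log2 fold change was 3.83, against 0.01 over all genes, and single genes ran from -1.22 to 7.22. With the limit of a log2 fold change beyond 1 the counts were again 29 (25.3% of all genes) and 1 (27.5%).

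Guca1b (ENSMUSG00000023979, chr17:47385393-47392967, plus strand, GRCm38) was at 1609, 1273 and 1334 CPM in AAV2-GFP, against 9.95 and 8.85 CPM at P21. This was the greatest difference among the 32 genes (log2 fold change 7.22, SE 0.33, adjusted p = 8.12e-10, edgeR). Gnat1 was at 8644, 7395 and 8079 CPM in AAV2-GFP, against 62.0 and 50.3 CPM at P21 (7.16, SE 0.37). Slc24a1 was at 907, 711 and 659 CPM in AAV2-GFP, against 5.60 and 7.13 CPM at P21 (6.90, SE 0.42). Pde6b (6.08), Impg1 (5.55) and Sag (5.42) followed. Shutoff genes other than Sag ran from 2.05 (Rgs9bp) to 4.05 (Pdc), and disc structure genes from 2.62 (Rom1) to 4.30 (Prom1). The cyclases were among the lowest of the genes called, with Gucy2e at 1.31 and Gucy2f at 1.96.

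At the other end, Unc119 was at 239, 155 and 167 CPM in AAV2-GFP, against 409 and 459 CPM at P21 (-1.22, SE 0.18, adjusted p = 4.91e-05, edgeR), and it was the only rod gene lower in adults. Abca4 was at 344, 279.6 and 309 CPM in AAV2-GFP, against 162 and 161 CPM at P21. All AAV2-GFP libraries were above both P21 libraries, but the gene was not called (0.94, SE 0.40, adjusted p = 0.052, edgeR). This outcome was not stable, since Abca4 was called higher under 10 of 19 other settings, which include AAV2-GFP against P14. Rdh8 was at 4.02, 3.45 and 1.20 CPM in AAV2-GFP, against 1.59 and 2.52 CPM at P21 (0.49, SE 0.58, adjusted p = 0.473, edgeR), and the groups overlapped.

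The pair of cyclase activators differed in the same comparison. Per kilobase, Guca1b over Guca1a was 1.86 and 2.28 in AAV2-Cre, from 2.18 to 2.40 in AAV2-GFP, from 0.205 to 0.354 at P1, from 0.216 to 0.285 at P14, and 0.212 and 0.170 at P21. The development libraries held more RNA of Guca1a per length and the adult libraries more of Guca1b, with no overlap. Gnat1 over Gnb1 was 2.24 and 2.12 in AAV2-Cre, from 1.98 to 2.37 in AAV2-GFP, from 0.00900 to 0.0145 at P1, from 0.492 to 0.580 at P14, and 0.305 and 0.314 at P21. Rom1 over Prph2 was 1.36 and 1.52 in AAV2-Cre, from 1.42 to 1.68 in AAV2-GFP, and from 1.86 to 3.76 in development.

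Other photoreceptor lists were also higher in AAV2-GFP than at P21, with 20 of 23 other rod genes called higher (median log2 fold change 3.75) and 9 of 11 cone genes (median 2.21). Müller glia genes went the other way, with 11 of 12 lower (median -3.60), as did bipolar cell genes, with 10 of 15 lower (median -1.44). Pericyte genes fell too, with 6 of 7 lower (median -4.62), and 5 of 7 endothelial genes were lower (median -2.64). Immune lists rose in full, with all 12 microglia genes called higher (median 5.95). So were all 7 B cell genes (median 7.65) and all 9 T and NK cell genes (median 6.28). A rise was thus not particular to photoreceptor genes.

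Finally, AAV2-Cre was compared with AAV2-GFP, to ask whether RNA of the rod genes differed with Kdm6a deletion after crush. All 32 fitted log2 fold changes were below 0, with a median of -0.56 against -0.03 over all 18395 genes tested. By edgeR's test 2 of the 32 genes, Rgs9 and Rgs9bp, were lower and 0 were higher (background 0.294% lower and 1.33% higher, and 0.217% and 1.13% with the fold limit, which both genes passed). At an unadjusted p under 0.05, 15 of the 32 genes and 7.90% of all genes tested were lower. DESeq2 called 7 of the 32 lower and 0 higher, against 3.32% of all genes to which it gave an adjusted p called lower, adding Pde6a, Gucy2e, Gucy2f, Grk1 and Tulp1.

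Rgs9 (ENSMUSG00000020599, chr11:109225355-109298129, minus strand, GRCm38) was at 51.7 and 44.8 CPM in AAV2-Cre, against 143.9, 128 and 145 CPM in AAV2-GFP. Both AAV2-Cre libraries were far below all AAV2-GFP libraries, with a log2 fold change of -1.57 (SE 0.16, adjusted p = 0.00698, edgeR). Rgs9bp (ENSMUSG00000056043, chr7:35578993-35585582, minus strand) was at 146 and 179 CPM in AAV2-Cre, against 410.3, 330 and 282 CPM in AAV2-GFP (-1.10, SE 0.19, adjusted p = 0.0319, edgeR). The groups did not overlap for either gene. Their products form 1 complex in rods and cones, in which Rgs9bp holds Rgs9 at the disc membrane.

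Both calls were then followed over the 5 fits that left out 1 library. Rgs9 had a log2 fold change from -1.64 to -1.46 and kept its call without any single AAV2-GFP library. It lost its call without either AAV2-Cre library, but a fit with 1 AAV2-Cre library left cannot decide whether the call rests on the other. Rgs9bp had a log2 fold change from -1.24 to -0.93 and lost its call in 4 of the 5 fits. Gnb5, the beta subunit of the same complex, named after its values were seen, was at 228 and 286 CPM in AAV2-Cre, against 452, 310.3 and 289.9 CPM in AAV2-GFP (-0.48, adjusted p = 0.295, edgeR) and was not called.

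For most of the other genes the 2 AAV2-Cre libraries differed from each other. Gnat1 was at 3577 and 7777 CPM in AAV2-Cre, against 8644, 7395 and 8079 CPM in AAV2-GFP. Only AAV2-Cre 1 was low, and the gene was not called (-0.54, SE 0.28, adjusted p = 0.383, edgeR). Sag was at 2248 and 4456 CPM in AAV2-Cre, against 5682, 3780 and 3816 CPM in AAV2-GFP, and Slc24a1 was at 319 and 759 CPM in AAV2-Cre, against 907, 711 and 659 CPM in AAV2-GFP. In both, AAV2-Cre 2 lay within the AAV2-GFP range.

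Over the 32 genes, AAV2-Cre 1 was at a median of 0.468 of the AAV2-GFP mean (from 0.240 to 0.840) and AAV2-Cre 2 at a median of 0.902 (from 0.133 to 1.48). Without AAV2-Cre 1 the median log2 fold change was -0.15 with 7 genes above 0, and without AAV2-Cre 2 it was -1.12 with all 32 below 0. The 1 library left in each of these fits was assumed to vary like the others. Neither fit called a rod gene, nor any gene lower (edgeR). At an unadjusted p under 0.05, 7 of the 32 genes were lower without AAV2-Cre 1, against 3.69% of all genes tested, and 28 were lower without AAV2-Cre 2, against 4.74%.

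The AAV2-Cre libraries were both below all AAV2-GFP libraries for 14 of the 32 genes (Rgs9, Rgs9bp, Rdh8, Gucy2e, Gucy2f, Grk1, Pde6a, Tulp1, Cnga1, Cngb1, Unc119, Prom1, Abca4 and Aipl1), a pattern of 13.5% of the 23844 genes in the filter, and both above for 0 (16.9%). Of these 14 genes only Rgs9 and Rgs9bp were called. Gucy2e was at 69.8 and 106 CPM in AAV2-Cre, against 175, 152 and 176 CPM in AAV2-GFP (-0.97, SE 0.20, adjusted p = 0.0533, edgeR). Grk1 was at 273 and 319 CPM in AAV2-Cre, against 661, 416 and 516 CPM in AAV2-GFP (-0.88, SE 0.20, adjusted p = 0.0674, edgeR). Gucy2f was at 20.8 and 42.4 CPM in AAV2-Cre, against 59.9, 83.2 and 70.9 CPM in AAV2-GFP (-1.22, SE 0.31, adjusted p = 0.0916, edgeR), and Tulp1 was at 385 and 507 CPM in AAV2-Cre, against 772, 613 and 681 CPM in AAV2-GFP (-0.66, SE 0.17, adjusted p = 0.0979, edgeR). Pde6a was at 36.7 and 99.3 CPM in AAV2-Cre, against 140, 134.7 and 185 CPM in AAV2-GFP (-1.21, SE 0.37, adjusted p = 0.145, edgeR), with a wide gap between the AAV2-Cre libraries. The steepest fitted value belonged to Rdh8 (-2.32, SE 0.83, adjusted p = 0.208, edgeR), which rested on 11 and 6 counts in AAV2-Cre, against 56, 57 and 20 counts in AAV2-GFP.

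The smallest differences were those of Gngt1 (-0.00, SE 0.37), Cdhr1 (-0.15, SE 0.19), Rbp3 (-0.19, SE 0.15) and Pde6g (-0.22, SE 0.26). Rbp3 was at 3869 and 4527 CPM in AAV2-Cre, against 4879, 4765 and 4301 CPM in AAV2-GFP, so that AAV2-Cre 1 stood at 0.832 of the AAV2-GFP mean.

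**Figure D4:**
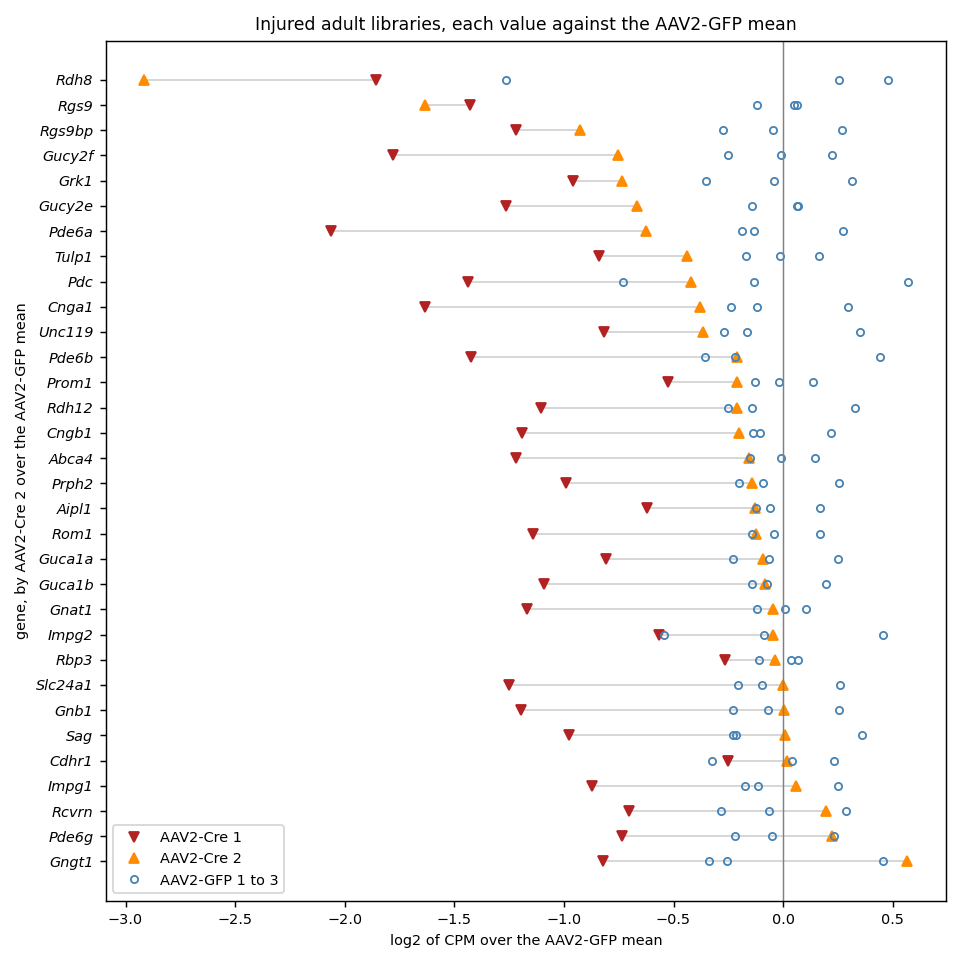
Log2 of the CPM over the AAV2-GFP mean for the 32 rod genes in each injured adult library, with genes ordered by AAV2-Cre 2. AAV2-Cre 1 (triangles down) lies left of all AAV2-GFP circles for 31 genes, while AAV2-Cre 2 (triangles up) lies left of them for 14. AAV2-Cre 1 was the lowest of all adult libraries for 29 of the 32 genes and for 26.7% of all 23844 genes in the filter. The share of all genes that lie below all AAV2-GFP libraries was not counted for either AAV2-Cre library alone. Rgs9 stood at 0.372 of the AAV2-GFP mean in AAV2-Cre 1 and 0.322 in AAV2-Cre 2, and Rgs9bp at 0.430 and 0.525. Rdh8 lies furthest left in AAV2-Cre 2 (0.133).

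Other lists were measured beside this comparison. The 11 cone genes took 0.678% and 0.676% of counts in AAV2-Cre, against 0.882%, 0.829% and 0.848% in AAV2-GFP, with 1 called lower, and so did not show the gap between the 2 AAV2-Cre libraries. Of 23 other rod genes 2 were called lower (median log2 fold change -0.68), and of 15 bipolar cell genes 1 was (median -0.54). The 10 photoreceptor transcription factor genes took 0.227% and 0.286% of counts in AAV2-Cre, against 0.439%, 0.368% and 0.341% in AAV2-GFP (median -0.47). The 12 Müller glia genes took 0.518% and 0.787% in AAV2-Cre, against 0.349%, 0.630% and 0.573% in AAV2-GFP, with 2 called higher (median 0.23). The 7 B cell genes took 0.112% and 0.0521% of counts in AAV2-Cre, against 0.0185%, 0.0449% and 0.0213% in AAV2-GFP, with 2 called higher, and no B cell gene was at 0 in either group. The 9 T and NK cell genes took 0.0755% and 0.0475% in AAV2-Cre, against 0.0227%, 0.0396% and 0.0413% in AAV2-GFP. The part of these cells in the lower rod genes was not tested.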

How the data were processed

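RNA was measured in 13 libraries, grouped by their labels. According to the methods of the study and its submitters' processing notes, poly-A RNA was sequenced as paired-end reads, FastQC 0.11.9 served for quality checks and Trimmomatic 0.39 for trimming. HISAT2 2.2.1 mapped the reads to GRCm38, and featureCounts (Subread 2.0.3) produced the counts that the authors deposited, as whole numbers without normalization. Strand setting, annotation and treatment of multi-mapping reads are not given in the sources used here. The table had 52550 genes, 52403 of them with a symbol in GENCODE M21, which also gave exon lengths. The length of a gene was the union of all its annotated exons. Ranks and ratios between genes per kilobase depend on that choice.

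The 32 rod genes, their roles and the other lists were written from textbook knowledge and chosen with earlier results of these data known. Tests used edgeR 4.0.16 under R 4.3.3 (TMM, filterByExpr, glmQLFit and glmQLFTest), with group as the only term. Injured adults (5 libraries) and development (8 libraries) had a fit each, and AAV2-GFP was set against P21 in a fit of all 13. A gene was called at a Benjamini-Hochberg adjusted p under 0.05 over all genes tested. All 32 genes passed the low-count filter in each fit. The biological coefficient of variation was 0.340 in injured adults, 0.109 in development and 0.218 over all 13. Replicates differed by more than sampling noise in every pair. The fits were also run on simulated counts with the same spread for every gene and library of a fit. That setting leaves out the difference in spread between adults and development in the fit of all 13. Named genes are the 32, Kdm6a, the leading markers of lists and genes overlapping a member, and exceptions are said to be chosen after their values were seen. Alternatives were DESeq2 1.42.0, other scaling, no low-count filter, the fold limit of the study, the replicate number as a block, leaving out single libraries and 1 fit for all libraries.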

Additional observations from a re-analysis of the deposited data

How the results depend on the processing

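The counts of rod genes for P14 against P1 stayed at 30 higher and 2 lower under every alternative run but the fold limit (29 and 2). All alternatives other than that limit called 29 of 30 higher genes for P21 against P1 (the exception was Impg2) and, for AAV2-GFP against P21, all 29 higher genes and Unc119. Abca4, not called in the main fit of AAV2-GFP against P21, was called higher under 10 of 19 alternatives. For AAV2-Cre against AAV2-GFP, where 2 genes were lower, DESeq2 gave 7, no low-count filter 15 and all 13 libraries in 1 fit 6, and leaving out 1 library gave from 0 to 2. Over all genes, lower calls in this comparison were 54, against 492 by DESeq2, 543 with no filter and 1071 in the fit of 13, while the medians of the 32 genes stayed from -0.68 to -0.52 with every library kept. For P21 against P14, the 5 higher became 2 with the fold limit, 1 with the replicate block and 1 in the fit of 13, and from 1 to 7 without 1 library (7 without P1 3, 1 without P14 2). The 16 lower became 8 with the fold limit, 10 in the fit of 13 and from 13 to 17 without 1 library. Over all genes, higher calls for P21 against P14 were 3047, against 563 with the fold limit, 2049 with the block and 627 in the fit of 13. Lower calls were 4024, against 1923, 3206 and 1997 in the same order. Without P1 3 they were 3751 higher and 4336 lower, and without P14 2 they were 2187 and 3333. AAV2-GFP against P14 called 30 rod genes higher and 1 lower, against 7957 and 8751 of all 23844 genes. The cause of these shifts was not tested, apart from the fold limit, which removes small changes by construction. The deviations of same-numbered libraries correlated at -0.041 to 0.026. With so few libraries in a group, these values cannot settle whether replicate numbers pair the samples. The block also takes away degrees of freedom, and whether that changed the calls was not tested. The summed level at P1 was 1586 CPM by library size, against 1676 CPM. Without the widely used Gnb1, Unc119 and Prom1, the mean share of Gnat1 was 24.6% in AAV2-Cre, 27.1% in AAV2-GFP, 2.00% at P1, 7.38% at P14 and 3.21% at P21, against 20.6%, 22.5%, 0.547%, 5.33% and 2.26%. With 2 AAV2-Cre and 2 P21 libraries, a gene low in 1 library only could not be told from a group difference.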
